A study of Mus musculus with 32 samples.

Results

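The interaction of Activin-A and IFN-γ at 12 h was measured in YUMM3.3 cells, a mouse melanoma line grown without any other cell type, as the effect of Activin-A on IFN-γ-treated cells minus its effect on cells without IFN-γ. The 16 wells of the 12 h time point were used, of 32 in the series. They formed 4 groups of 4 wells: untreated cells, cells given 40 ng/ml Activin-A, cells given 20 ng/ml IFN-γ, and cells given both factors at these doses. The dose of Activin-A is the one in the labels and methods, and a passage elsewhere in the study gives a higher one. All groups were the same cell line, harvested 12 h after treatment, and RNA was counted by BRB-seq, a 3′ method in which barcoded samples are pooled into 1 library. The comparison asks, gene by gene, whether both factors together gave the level that each alone would predict. On the log2 scale used here, an interaction of 0 means that the fold changes of the single treatments multiply, a negative value means that the level under both factors was lower than that product, and a positive value means that it was higher. The same quantity reads equally as the effect of IFN-γ with Activin-A minus its effect without.

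Activin-A is a ligand of the TGF-β family that signals through type I and type II receptor kinases to the transcription factors SMAD2 and SMAD3, and is known for inducing matrix, contractile and feedback genes. IFN-γ acts through JAK kinases and induces the transcription factor IRF1 and genes of antigen presentation, antiviral defence and chemokine signalling. SMAD and STAT proteins draw on the same co-activators, and each pathway also induces its own negative regulators.

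Totals at 12 h ran from 803370 to 1285540 counts per well, so that 3 counts corresponded to 2.33 to 3.73 CPM (counts scaled by the well's total over the tested genes and its TMM factor), and 8971 of 12451 genes had enough counts to be tested. Melanocytic markers were all detected (7 of 7, summed 339 to 443 CPM in every well). Markers of T and NK cells (1 of 5 in the table, at most 2.22 CPM summed) and of endothelial cells (0 of 4) were near or at 0, macrophage markers summed to 7.85 to 22.2 CPM (4 of 6) and keratinocyte markers to 1.10 to 9.19 CPM (1 of 4). Fibroblast markers (3 of 5, mostly Col3a1) summed to 218 to 305 CPM without IFN-γ and to 99.9 to 152 CPM with it, and the interaction of Col3a1 was -0.02 ± 0.13 (log2, SE). In such bulk samples, fewer cells of a kind and less RNA per cell cannot be told apart. Wells of 1 line were the replicates, and p-values measure the spread between wells, which may be technical.

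Departures from the product of the single effects were small for most genes, and 1 gene, Cth, passed the test: its interaction fell below 0, while no gene passed above 0 (1 of 8971 genes, 0.0111%, adjusted p under 0.05, quasi-likelihood F-test of edgeR with the Benjamini-Hochberg method). At an unadjusted p under 0.05, 612 genes (6.82%) departed from 0, of which 290 were above (3.23%) and 322 below (3.59%). DESeq2 called 0 genes, with 310 at an unadjusted p under 0.05. The median interaction over all genes was -0.0055, with 4401 genes above 0 and 4570 below. Precision varied with depth. The 95% interval lay within -1 to 1 for 7030 genes (78.4%) and within -0.5 to 0.5 for 2782 genes (31%). Among the 3264 genes with a mean under 30 counts, the median SE was 0.376 and 45.1% had an interval within -1 to 1. Among the 523 genes with a mean over 300 counts, the median SE was 0.0874 and all had one.

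Cth encodes cystathionine gamma-lyase, which makes cysteine from cystathionine (GENCODE M21, GRCm38, chr3:157894248-157925077, minus strand). Its level in the untreated wells was 37.4, 42.2, 41.9 and 48.2 CPM. With Activin-A alone it was 67.5, 72.8, 73.4 and 74.5 CPM, and with IFN-γ alone 65.6, 55.5, 55.3 and 64.2 CPM. Each factor alone thus gave wells that all lay above the untreated range. With both factors it was 35.2, 55.2, 56.7 and 56.1 CPM, and every one of these wells lay below every well given Activin-A alone. The product of the single effects would have been 103 CPM, against a fitted level of 50.8 CPM. The interaction was -1.02 ± 0.21 (SE, 95% interval -1.44 to -0.60, adjusted p = 0.0359, edgeR's quasi-likelihood test), and on the linear scale the level under both factors fell short of the sum by 39.0 ± 6.50 CPM (SE). Activin-A alone raised Cth by 0.77 (adjusted p = 9.34e-05, edgeR) and IFN-γ alone by 0.52 (adjusted p = 0.0122, edgeR), whereas Activin-A on top of IFN-γ gave -0.25 (adjusted p = 0.620, edgeR). With Activin-A present, IFN-γ lowered Cth by 0.50 (adjusted p = 0.0123, edgeR). That call rested on replicate 1 of both factors, without which the effect was -0.36 (adjusted p = 0.152, edgeR). The rise with IFN-γ alone was not called without untreated replicate 1 (0.45, adjusted p = 0.0803, edgeR) or IFN-γ replicate 4 (0.48, adjusted p = 0.0635, edgeR). DESeq2 called neither effect of IFN-γ on Cth (adjusted p = 0.0586 alone and 0.0540 with Activin-A). These checks of single effects, here and for other genes, were chosen after the data were seen. The call of the interaction was close to its threshold: leaving out 1 well at a time kept the interaction between -1.08 and -0.88, but the call was made in 9 of the 16 fits. It was lost without untreated replicate 1, 2 or 3, Activin-A replicate 3, IFN-γ replicate 1 or 4, or replicate 1 of both factors (adjusted p = 0.0771 to 0.114, edgeR). Without the last of these wells, whose 35.2 CPM stood apart from the other 3, the interaction was -0.88 (adjusted p = 0.109, edgeR). DESeq2 gave the same size, -1.02, with an adjusted p of 0.373.

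The genes ranked next to Cth by their p did not pass the adjusted threshold, and their sizes are given as a description of the top of that ranking. Psph, the phosphatase of the last step of serine synthesis, had 81.7, 81.7, 79.3 and 114 CPM in untreated wells and 112, 109, 110 and 104 CPM with Activin-A. It had 158, 96.3, 83.5 and 108 CPM with IFN-γ and 64.7, 93.5, 72.2 and 88.8 CPM with both. The wells with both factors all lay below those with Activin-A alone but overlapped the untreated and IFN-γ wells. Its interaction was -0.77 ± 0.18 (SE, adjusted p = 0.0652, edgeR). Gadd45a, a stress-induced regulator of cell cycle arrest and DNA repair, was at 139 to 204 CPM with Activin-A alone and at 79.4 to 114 CPM with both, and its interaction was -0.65 ± 0.15 (adjusted p = 0.0652, edgeR). F2rl1, which encodes the protease-activated receptor PAR2, was at 160 to 214 CPM with Activin-A alone, and at 77.7 to 106 CPM with both factors, and its interaction was -0.70 ± 0.16 (adjusted p = 0.0651, edgeR). For both genes the wells with Activin-A alone stood above those of the other 3 groups. Vps53, a subunit of an endosome-to-Golgi tethering complex, had an interaction of -1.08 ± 0.26 and Igsf3, a membrane protein with immunoglobulin domains, of -1.52 ± 0.40 at fitted levels of 10.5 to 21.6 CPM.

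In the other direction, Id3, an inhibitor of basic helix-loop-helix transcription factors and a known target of TGF-β family signalling, was at 182 to 244 CPM with Activin-A alone and at 288 to 356 CPM with both factors, ranges that did not overlap. Its interaction was 0.51 ± 0.11 (adjusted p = 0.0651, edgeR). Nqo1, a quinone reductase, was at 112 to 137 CPM in untreated wells, 82.7 to 109 CPM with Activin-A, 92.1 to 104 CPM with IFN-γ and 99.1 to 150 CPM with both. Each factor alone lowered Nqo1, by 0.42 (adjusted p = 0.0113, edgeR) and 0.40 (adjusted p = 0.00596, edgeR), while the range with both overlapped the untreated one. The call for Activin-A alone was lost without untreated replicate 1 or 2 or Activin-A replicate 2 or 3 (adjusted p up to 0.0938, edgeR) and with DESeq2 (adjusted p = 0.0889). The interaction of Nqo1 was 0.67 ± 0.16 (adjusted p = 0.0652, edgeR). Nrn1, a neuritin that promotes neurite growth, had an interaction of 0.38 ± 0.09, Akr1c18, an aldo-keto reductase that inactivates progesterone, of 0.61 ± 0.16, and Kctd3 of 0.91 ± 0.24.

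**Figure D1:**
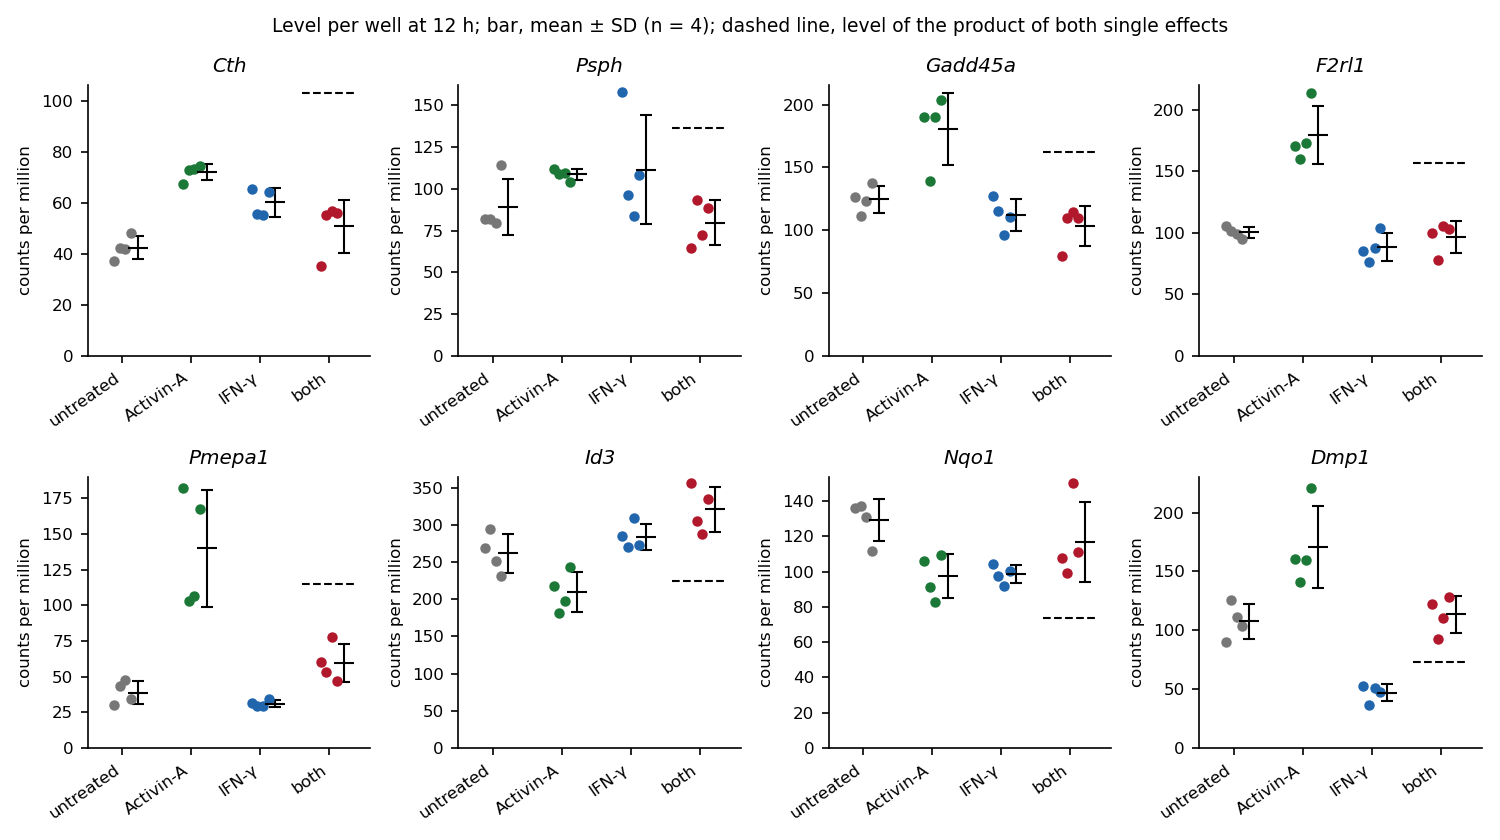
Level of 8 genes in each well at 12 h, in CPM (y axis from 0), by treatment (x axis). Points are wells, bars the mean ± SD of 4 wells, and the dashed line the level that the product of the single effects would give. Cth, Psph, Gadd45a, F2rl1 and Pmepa1 lie below that line with both factors, and Id3, Nqo1 and Dmp1 above it.

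The genes that respond to Activin-A were looked at as a group. They were taken from the separate wells harvested after 4 h, so that no well used to choose them enters the 12 h values. Of 96 genes raised by Activin-A alone at 4 h, 90 were tested at 12 h. Their median effect of Activin-A at 12 h was 0.42 without IFN-γ and 0.14 with it. The interaction of these genes was below 0 for 82 of 90, with a median of -0.24 against -0.0055 over all genes tested. At an unadjusted p under 0.05 there were 26 below 0 and 1 above, against 3.59% and 3.23% of all genes, and none passed the adjusted threshold. The effect with IFN-γ was nearer to 0 than the effect without it in 79 of the 90 genes, compared with 4560 of 8971 genes overall. The wells behind the first effect are not those behind the second. Across the 90 genes the effects had a Pearson correlation of 0.834 and a slope through 0 of 0.55, and across all genes a correlation of 0.219. Genes are not independent replicates, and these values are descriptions. Genes lowered by Activin-A at 4 h went mostly the other way, though less uniformly. Of 53 tested (54 chosen), 40 had an interaction above 0, and the median was 0.15. Their median effect of Activin-A was -0.27 without IFN-γ and -0.18 with it. The effect with IFN-γ was nearer to 0 in 38 of the 53 genes, with a Pearson correlation of 0.532 and a slope through 0 of 0.52. At an unadjusted p under 0.05 there were 15 above 0 and 1 below.

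The mean log2 CPM of the 90 raised genes was 6.08, 6.18, 6.08 and 6.04 in untreated wells and 6.68, 6.55, 6.61 and 6.77 with Activin-A. It was 5.96, 6.00, 6.05 and 5.96 with IFN-γ and 6.28, 6.19, 6.28 and 6.24 with both. The untreated and IFN-γ wells overlapped. The wells with both factors were all above the untreated wells and all below those with Activin-A alone. For the 53 lowered genes the mean log2 CPM was 7.41 to 7.44 in untreated wells, 7.06 to 7.10 with Activin-A, 7.47 to 7.58 with IFN-γ and 7.30 to 7.32 with both, and no ranges overlapped. When the lists were instead chosen at 4 h among IFN-γ-treated wells (a choice made after the data were seen), 43 of 47 tested raised genes had an interaction below 0 with a median of -0.28, and 19 of 23 lowered genes had one above 0 with a median of 0.18. Their median effect of Activin-A at 12 h was 0.55 without and 0.25 with IFN-γ for the raised genes, of which 34 were also in the first list. Leaving out replicate 1 of the Activin-A wells at 4 h, which differed from its group more than other wells did, kept both medians within the spread between wells.

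**Figure D2:**
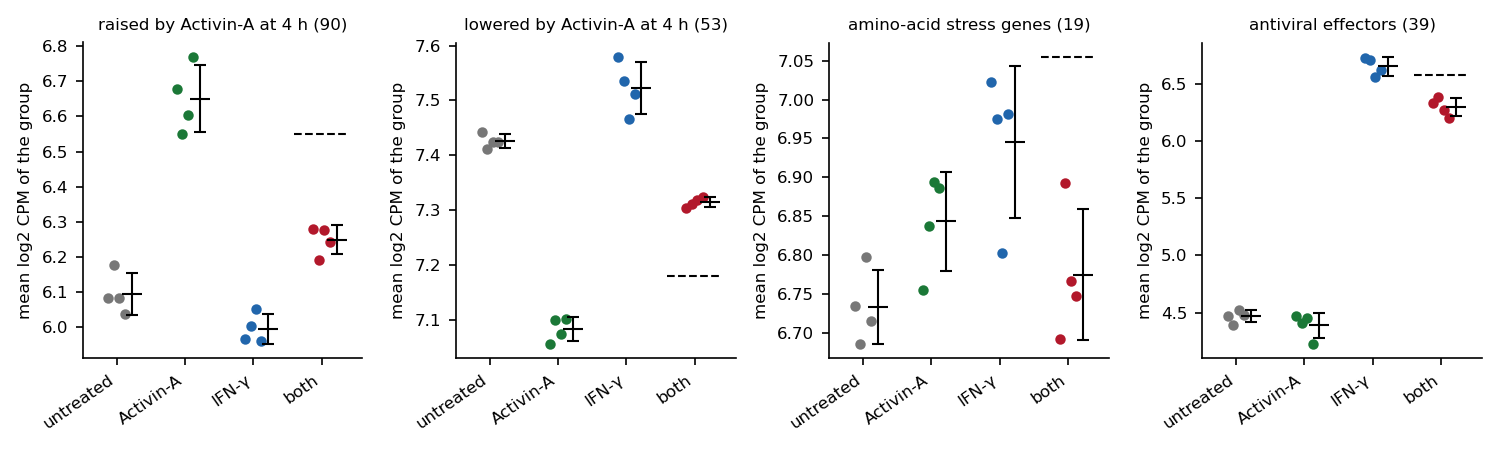
Mean log2 CPM of 4 groups of genes in each well at 12 h (y axes differ between panels and do not start at 0), by treatment; bars are the mean ± SD of 4 wells and the dashed line is the sum of both single effects. All 4 wells with both factors lie below the line for genes raised by Activin-A at 4 h, amino-acid stress genes and antiviral effectors, and above it for genes lowered by Activin-A at 4 h.

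Calls for each factor at 12 h were counted with and without the other factor. Activin-A changed 216 genes without IFN-γ (2.41%; 112 higher, 104 lower) and 92 with it (1.03%; 41 higher, 51 lower), of which 43 were called in both settings. IFN-γ changed 830 genes without Activin-A (9.25%; 577 higher, 253 lower) and 863 with it (9.62%; 554 higher, 309 lower), with 519 in both. All 43 had the same sign in both settings, and so did 518 of the 519, Cth being the exception. A call in one setting alone does not show a difference between settings. Of the 222 genes called for Activin-A in 1 setting only, Cth was the only one with an adjusted call of the interaction, and of the 655 for IFN-γ there was none. DESeq2 called fewer, 140 without and 59 with IFN-γ for Activin-A, and 588 without and 569 with Activin-A for IFN-γ. Of 199 genes raised more than 2-fold by IFN-γ at 4 h, 191 were tested at 12 h. Their median IFN-γ effect was 2.14 without Activin-A and 1.97 with it, with a Pearson correlation of 0.923 across genes, and their median interaction was -0.14, with 119 below 0 and 72 above. At an unadjusted p under 0.05, 15 were below 0 and 5 above, against 3.59% and 3.23% of all genes tested. The mean log2 CPM of the 191 genes was 6.34 to 6.42 with IFN-γ and 6.19 to 6.28 with both, ranges that did not overlap, and 4.14 to 4.16 in untreated wells against 4.06 to 4.19 with Activin-A, which overlapped. Of the 191, 16 genes had a group at or under 3 counts per well, where the fitted value depends on the prior count, and the median without them was -0.11.

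**Figure D3:**
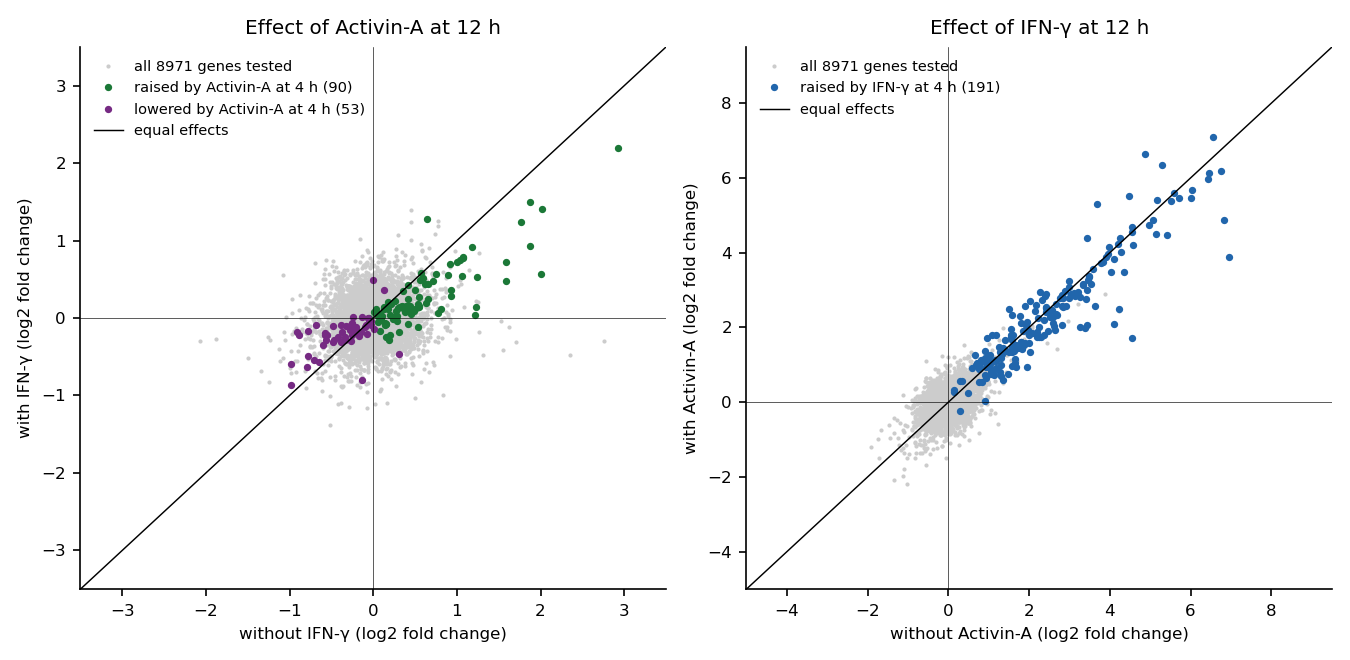
Effect of Activin-A at 12 h without (x axis) and with IFN-γ (y axis), and effect of IFN-γ without (x axis) and with Activin-A (y axis), in log2 fold change; each point is a gene, colours mark genes chosen at 4 h, and the diagonal marks equal effects. Genes raised by Activin-A at 4 h mostly lie below the diagonal on the left (82 of 90 have an interaction below 0), while of the 191 genes raised by IFN-γ, 119 lie below it and 72 above on the right.

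Within the activin pathway, the interaction was examined by the role of each gene. Of 16 receptors and Smads in the table, 13 were tested, with a median interaction of 0.02 and 1 at an unadjusted p under 0.05, Bmpr2, a type II receptor for bone morphogenetic proteins (-0.69 ± 0.24). Of 27 Smad targets and feedback genes, 22 were tested, with a median of -0.12 and 8 at an unadjusted p under 0.05, 3 above 0 and 5 below, against 3.23% and 3.59% of all genes tested. Pmepa1, which restrains TGF-β signalling by binding receptor-regulated Smads, was at 30.3, 43.1, 47.4 and 34.1 CPM in untreated wells. It was at 182, 103, 107 and 168 CPM with Activin-A, 31.6, 29.3, 29.3 and 34.2 CPM with IFN-γ, and 60.1, 53, 77.8 and 46.7 CPM with both. The wells with both factors lay below all wells with Activin-A alone and above all wells with IFN-γ alone. Activin-A raised Pmepa1 in both settings, by 1.87 without IFN-γ (adjusted p = 3.76e-19, edgeR) and by 0.93 with it (adjusted p = 0.00114, edgeR), and the interaction was -0.94 ± 0.25 (adjusted p = 0.180, edgeR).

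Ccn2, a matricellular growth factor and classical Smad target, was at 126 to 151 CPM in untreated wells and rose to 453 to 558 CPM with Activin-A. It was at 131 to 150 CPM with IFN-γ and 372 to 431 CPM with both, below every well with Activin-A alone. Its interaction was -0.38 ± 0.12 (adjusted p = 0.301, edgeR). Thbs1, an extracellular activator of latent TGF-β, had an interaction of -0.29 ± 0.08 at effects of Activin-A of 1.07 without and 0.78 with IFN-γ, both past the test (adjusted p = 2.60e-30 and 1.89e-20, edgeR). Skil, a repressor of Smads, had -0.72 ± 0.45, with an interval that includes 0. Id1 (0.72 ± 0.21) and Fst (0.27 ± 0.08), chosen after their values were seen, were above 0 with Id3. Fst encodes follistatin, an extracellular antagonist of activin, and Id1 a relative of Id3.

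Of 20 contractile and actin-binding genes, 18 were tested with a median interaction of -0.09, and 2 were above 0 and 3 below at an unadjusted p under 0.05, against 3.23% and 3.59% of all genes tested. Their median effect of Activin-A was 0.26 without and 0.13 with IFN-γ. Acta2, smooth muscle actin, went the other way. It was at 408 to 494 CPM in untreated wells, 675 to 739 CPM with Activin-A, 339 to 384 CPM with IFN-γ and 657 to 714 CPM with both, so that the ranges with Activin-A overlapped whether or not IFN-γ was present. Its interaction was 0.24 ± 0.09 (adjusted p = 0.477, edgeR), and Activin-A raised it by 0.91 on top of IFN-γ (adjusted p = 3.38e-22, edgeR). Of 47 matrix genes, 36 were tested with a median of -0.04. Among these, Bgn, the proteoglycan biglycan, had -0.14 ± 0.08, Col1a1 -0.43 ± 0.25, and Col18a1 -0.39 ± 0.11. Dmp1, a mineral-binding matrix protein, was at 90.3 to 126 CPM untreated, 141 to 221 CPM with Activin-A, 36.6 to 52.2 CPM with IFN-γ and 92.4 to 129 CPM with both. The range with both factors overlapped the untreated one. On the linear scale it had 3.73 ± 20.9 CPM (SE) relative to the sum of the single effects. Its log2 interaction was 0.63 ± 0.18 (adjusted p = 0.231, edgeR), above 0 where 82 of the 90 genes raised by Activin-A at 4 h, to which Dmp1 belongs, were below.

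In the first steps of the IFN-γ pathway no gene departed from the product of the single effects past the test. All 17 receptor, JAK, STAT and IRF genes in the table were tested, with a median interaction of 0.01 and none at an unadjusted p under 0.05. Over all genes 6.82% were, a share at which a list of this size would hold few, so the count is near the background. Irf1, a transcription factor induced by interferons, was at 38.6 to 54.1 CPM in untreated wells, 43.4 to 47.2 CPM with Activin-A, 681 to 738 CPM with IFN-γ and 659 to 739 CPM with both, so the ranges with IFN-γ and with both overlapped. Its interaction had a 95% interval of -0.31 to 0.31. Irf7 (-0.25 ± 0.30) and the feedback inhibitor Socs1 (0.04 ± 0.22) had intervals that include 0. Activin-A on top of IFN-γ lowered Irf7 by 0.64 (adjusted p = 0.00168, edgeR), and gave -0.39 without IFN-γ (adjusted p = 0.632, edgeR). The 10 genes of negative feedback on cytokine signalling had a median of -0.03, and Tmem173, which encodes STING, an adaptor for sensing of cytosolic DNA, had 0.01 ± 0.15 (interval -0.29 to 0.31).

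Of 22 genes of MHC class I and peptide loading, 21 were tested, with a median interaction of -0.03 and none at an unadjusted p under 0.05, again near the 6.82% of all genes for a list of this size. Their median IFN-γ effect was 2.84 without and 2.86 with Activin-A. The mean log2 CPM of the 21 genes was 8.41 to 8.49 with IFN-γ and 8.29 to 8.34 with both, ranges that did not overlap. It was 5.72 to 5.86 in untreated wells and 5.54 to 5.78 with Activin-A, which overlapped. With Activin-A the group mean went from 5.78 to 5.69 without IFN-γ and from 8.46 to 8.31 with it. The interaction of these means was -0.06, beside a pooled SD between wells of 0.07. The heavy chain H2-K1 had -0.14 ± 0.10. Activin-A lowered it by 0.24 on top of IFN-γ (adjusted p = 0.00600, edgeR; 0.0575 without IFN-γ replicate 2) and gave -0.11 without IFN-γ. The interaction of the peptide transporter subunit Tap1 was 0.04 ± 0.23, that of the immunoproteasome subunit Psmb8 0.15 ± 0.29, of the proteasome activator subunit Psme1 -0.16 ± 0.09 and of the transactivator Nlrc5 -0.55 ± 0.40. On the linear scale Tap1 had -45.8 ± 6.23 CPM (SE) relative to the sum of the single effects, and its wells were at 382 to 402 CPM with IFN-γ and 335 to 349 CPM with both, ranges that did not overlap. The log2 effect of Activin-A on Tap1 was -0.19 on top of IFN-γ (adjusted p = 0.228, edgeR) and -0.23 without it (adjusted p = 0.783, edgeR). Of 14 checkpoint ligands, 8 were tested, with a median of 0.10. Cd274, which encodes PD-L1, had 0.01 with an interval of -1.09 to 1.11, too wide at its depth to place it. At an unadjusted p under 0.05 there was 1 gene of this list, Lgals3 (0.17 ± 0.08), against 6.82% of all genes tested. Lgals9, a galectin ligand of TIM-3, had the highest value of this list, 0.38, but was not at that threshold.

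**Figure D4:**
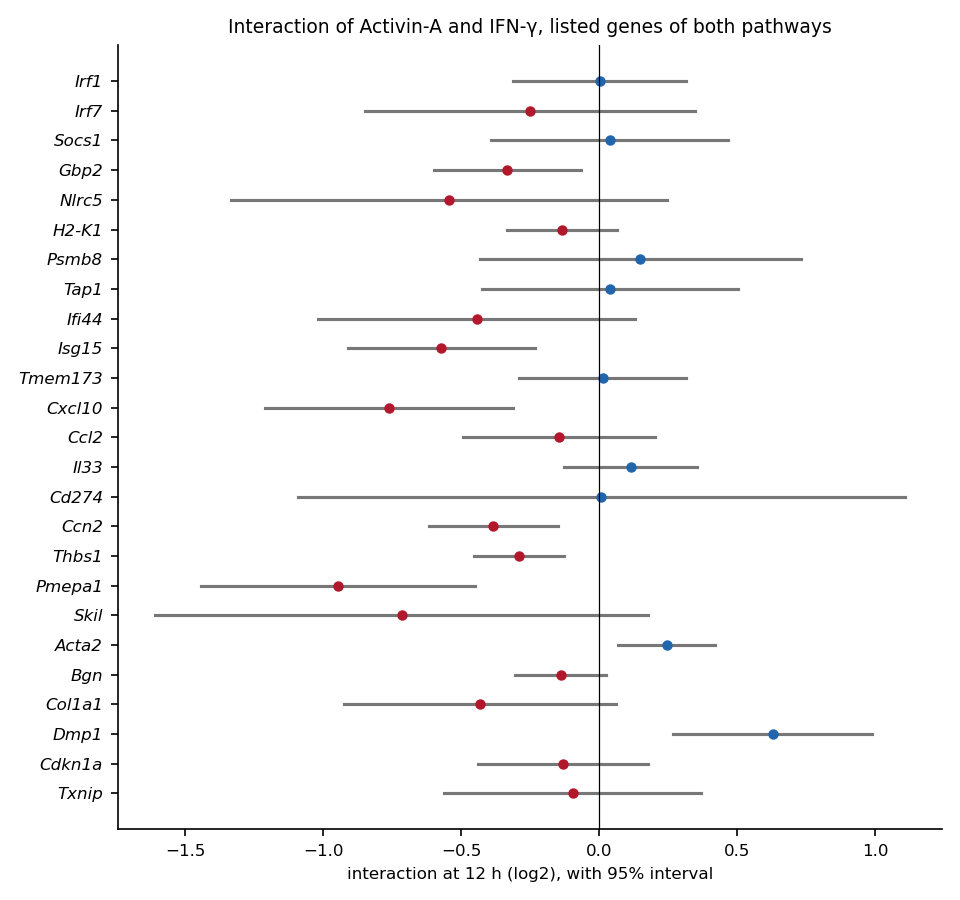
Interaction at 12 h (x axis, log2) of the listed genes of both pathways, with 95% intervals; blue points are above 0 and red points below. Irf1, Tap1 and Tmem173 sit near 0 on this log2 scale, Pmepa1, Cxcl10 and Isg15 below it, and Dmp1 above it.

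Antiviral effectors and sensors of nucleic acids lay lower as a group. Of 45 genes in the table, 39 were tested, 30 with an interaction below 0, with a median of -0.24. At an unadjusted p under 0.05, 6 were below 0 and none above, against 3.59% and 3.23% of all genes tested, and none passed the adjusted threshold. The mean log2 CPM of the 39 genes was 6.56 to 6.73 with IFN-γ and 6.20 to 6.39 with both, ranges that did not overlap, and 4.4 to 4.52 in untreated wells against 4.23 to 4.47 with Activin-A, which overlapped. Isg15, a ubiquitin-like modifier, was at 380, 393, 254 and 385 CPM with IFN-γ and 281, 301, 222 and 232 CPM with both. It was at 59.9 to 70.5 CPM in untreated wells and 55.9 to 79.6 CPM with Activin-A. IFN-γ replicate 3 was the only IFN-γ well within the range of both factors. The interaction of Isg15 was -0.57 ± 0.17 (adjusted p = 0.257, edgeR). Dropping IFN-γ replicate 3 brought this interaction past the threshold (adjusted p = 0.0428, edgeR). Dropping any other single well did not, and without Activin-A replicate 1 the adjusted p was 0.580 (edgeR). With DESeq2 the interaction had an adjusted p of 0.999. Activin-A lowered Isg15 by 0.45 on top of IFN-γ (adjusted p = 0.000321, edgeR), which DESeq2 did not call (adjusted p = 0.205), and gave 0.12 without it. Ifi44, an interferon-induced protein, had -0.44 ± 0.29, and Activin-A lowered it by 0.76 on top of IFN-γ (adjusted p = 1.62e-07, edgeR) and gave -0.31 without it (adjusted p = 0.727, edgeR). Oas3, an oligoadenylate synthase that activates RNase L, had the lowest value of this list, -1.39 ± 0.54, at fitted levels of 3.61 to 38.8 CPM.

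The promoter windows of Isg15 and Oas3 (RefSeq, GRCm38.p6, 250 bases before to 50 after the start, given on the gene's strand) are shown because these genes had the smallest p and the lowest value in the antiviral list. Capitals mark matches to GAAANNGAAA, a core of the interferon-stimulated response element, searched on both strands; the 3 matches of Isg15 overlap. The windows lie at chr4:156200769-156201068 and chr5:120777610-120777909, both on the minus strand.
Isg15: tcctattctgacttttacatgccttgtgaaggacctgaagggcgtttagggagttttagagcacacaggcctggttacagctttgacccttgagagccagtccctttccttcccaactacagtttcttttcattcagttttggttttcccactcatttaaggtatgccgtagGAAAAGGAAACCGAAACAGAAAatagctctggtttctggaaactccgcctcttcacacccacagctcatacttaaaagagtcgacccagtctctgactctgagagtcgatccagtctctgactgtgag
Oas3: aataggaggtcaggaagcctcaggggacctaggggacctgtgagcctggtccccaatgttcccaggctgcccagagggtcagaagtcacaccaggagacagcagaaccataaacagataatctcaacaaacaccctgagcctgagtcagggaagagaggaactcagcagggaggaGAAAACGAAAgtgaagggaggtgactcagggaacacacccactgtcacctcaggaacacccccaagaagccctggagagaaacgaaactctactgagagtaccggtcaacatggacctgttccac
Of the 39 genes, 29 had a window in the table and 15 of these a match (51.7%), against 3.99% of 27025 genes with a window and 3.44% of 32851 windows. The listed genes were raised by IFN-γ, with a median effect of 2.36 without Activin-A, so the share with a match does not bear on the interaction. The median interaction was -0.36 for the genes with a match and -0.30 for those with a window but no match. For the whole list, which includes genes without a window, it was -0.24. A match describes the sequence, not binding.

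Interferon-induced GTPases, which act on the vacuoles of intracellular pathogens, spread widely. Of 18 in the table, 14 were tested, from -3.07 for Gm4951 to 1.77 for Gbp6, both with a group at or under 3 counts per well. The median was -0.16, and -0.12 without the 5 such genes. Gbp2, a guanylate-binding protein, had -0.33 ± 0.13 at 4729 to 4992 CPM with IFN-γ. Iigp1 had 1.04 ± 0.31: it was at 12.6 to 17.6 CPM in untreated wells, 4.14 to 10.4 CPM with Activin-A, 579 to 616 CPM with IFN-γ and 612 to 652 CPM with both. The ranges under IFN-γ overlapped, and the separation lay between the wells without IFN-γ. Of 22 chemokines, cytokines and antagonists, 14 were tested with a median of -0.10, and -0.02 without 3 genes at or under 3 counts. The mean log2 CPM of the 14 genes was 6.20 to 6.43 with IFN-γ and 5.96 to 6.10 with both, ranges that did not overlap. It was 4.84 to 4.98 in untreated wells and 4.66 to 4.82 with Activin-A, which did not overlap either. Cxcl10, a ligand of CXCR3 on T cells, was at 188 to 318 CPM with IFN-γ and 116 to 187 CPM with both, and at 26.4 to 39.5 CPM untreated against 29.1 to 49.7 CPM with Activin-A. Its interaction was -0.76 ± 0.23 (adjusted p = 0.257, edgeR). Ccl2, a ligand of CCR2 on monocytes, was lowered by Activin-A in both settings, by 0.63 without IFN-γ (adjusted p = 0.00841, edgeR) and 0.77 with it (adjusted p = 7.70e-15, edgeR), with an interaction of -0.14 ± 0.18. The first of these calls was lost without untreated replicate 1 or Activin-A replicate 1 or 4 (adjusted p up to 0.0957, edgeR) and with DESeq2 (adjusted p = 0.0837). Il33, an alarmin, was likewise lowered by 0.98 and 0.87, and its interaction was 0.11 ± 0.12. Of 9 complement genes only Serping1, the C1 inhibitor, was tested; it was at 208 to 227 CPM with IFN-γ and 158 to 183 CPM with both, and its interaction was -0.87 ± 0.30.

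Amino-acid stress genes, the targets of ATF4 that restore amino acid supply, were the other group with low values. Of 20 in the table, 19 were tested and 17 had an interaction below 0. The median was -0.20, and at an unadjusted p under 0.05 there were 8 below 0 and none above, against 3.59% and 3.23% of all genes tested. Cth was the only one past the adjusted threshold. Besides Cth and Psph, the 8 were Mthfd2 (-0.31 ± 0.10) and Shmt2 (-0.22 ± 0.11) of mitochondrial folate metabolism, Sesn2 (-0.96 ± 0.37), an inhibitor of mTORC1, Asns (-0.27 ± 0.11), asparagine synthetase, and the transcription factors Cebpg (-0.39 ± 0.18) and Atf4 (-0.17 ± 0.09), these 6 named after their values were seen. Ddit3 (0.23 ± 0.25), which encodes CHOP, and Phgdh (0.05 ± 0.11), of the first step of serine synthesis, were the 2 above 0. The mean log2 CPM of the 19 genes was 6.69 to 6.80 in untreated wells, 6.76 to 6.89 with Activin-A, 6.80 to 7.02 with IFN-γ and 6.69 to 6.89 with both. These ranges overlap between all treated groups, and IFN-γ replicate 3, at 6.80, was lower than the other 3 IFN-γ wells. The median effect of Activin-A on the list was 0.08 without IFN-γ and -0.15 with it.

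ATF4 with a C/EBP partner is known to bind a composite element. The promoter windows of Asns and Trib3 are shown as examples of a match, picked after the matches were known from the 4 windows that held one; neither gene had the smallest p or the lowest value of the list. Trib3, a pseudokinase that feeds back on ATF4, had an interaction of -0.53 ± 0.28. Capitals mark matches to TGATGNAA, searched on both strands, with the Trib3 match on the opposite strand. The windows lie at chr6:7693160-7693459 and chr2:152344011-152344310, both on the minus strand, in the RefSeq set and build named above.
Asns: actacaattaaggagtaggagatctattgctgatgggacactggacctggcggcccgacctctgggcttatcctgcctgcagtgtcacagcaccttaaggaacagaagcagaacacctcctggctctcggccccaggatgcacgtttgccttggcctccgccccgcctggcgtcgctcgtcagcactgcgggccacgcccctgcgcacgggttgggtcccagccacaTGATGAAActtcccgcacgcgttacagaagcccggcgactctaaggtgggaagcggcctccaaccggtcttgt
Trib3: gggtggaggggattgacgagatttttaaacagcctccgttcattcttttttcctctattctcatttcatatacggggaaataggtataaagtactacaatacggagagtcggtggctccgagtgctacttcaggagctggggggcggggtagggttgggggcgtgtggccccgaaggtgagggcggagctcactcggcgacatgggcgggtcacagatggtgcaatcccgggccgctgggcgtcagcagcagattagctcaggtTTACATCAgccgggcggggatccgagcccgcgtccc
Of the 19 genes, 17 had a window and 4 of these a match (23.5%), against 4.51% of all genes with a window and 3.97% of windows. The median interaction was -0.19 with a match and -0.20 without. Cth had no entry among the windows.

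The medians of the remaining groups ran from -0.09 for 12 NF-κB genes to 0.05 for 15 antioxidant enzymes, with melanocyte lineage genes at -0.06 (9 tested), hypoxia-inducible genes at -0.04 (16), sterol synthesis and uptake at -0.03 (18), MAPK feedback and immediate-early genes at -0.02 (25), p53 and cell death genes at -0.02 (31), cell-cycle genes at 0.00305 (31), mesenchymal transition regulators at 0.03 (10) and cytosolic ribosomal proteins at -0.03 (75). At an unadjusted p under 0.05, the antioxidant enzymes had 3 above 0 and none below and the MAPK feedback and immediate-early genes 3 above and 2 below, against 3.23% and 3.59% of all genes tested, while the other groups had 0 to 4 over both directions. Within them, Dusp1, a phosphatase of MAP kinases, was at 38.6 to 46.3 CPM untreated, 62.2 to 76.5 CPM with Activin-A, 52.2 to 57.6 CPM with IFN-γ and 52.2 to 63.3 CPM with both. The last 2 ranges overlap, and its interaction was -0.67 ± 0.21 (adjusted p = 0.302, edgeR). Sox9 (-0.44 ± 0.16), a transcription factor of the neural crest, and Ndrg1 (-0.79 ± 0.27), a hypoxia-induced gene, were below 0. Birc2 (-0.69 ± 0.43), an inhibitor of apoptosis, had an interval that includes 0. Ccne2 (0.77 ± 0.26), a cyclin of S phase entry, Sqle (0.36 ± 0.13), of sterol synthesis, and Cdh2 (0.37 ± 0.17), N-cadherin, were above 0. Cdkn1a, which encodes the cell cycle inhibitor p21, had -0.13 ± 0.15, and Txnip, an inhibitor of thioredoxin, -0.10 ± 0.23.

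**Figure D5:**
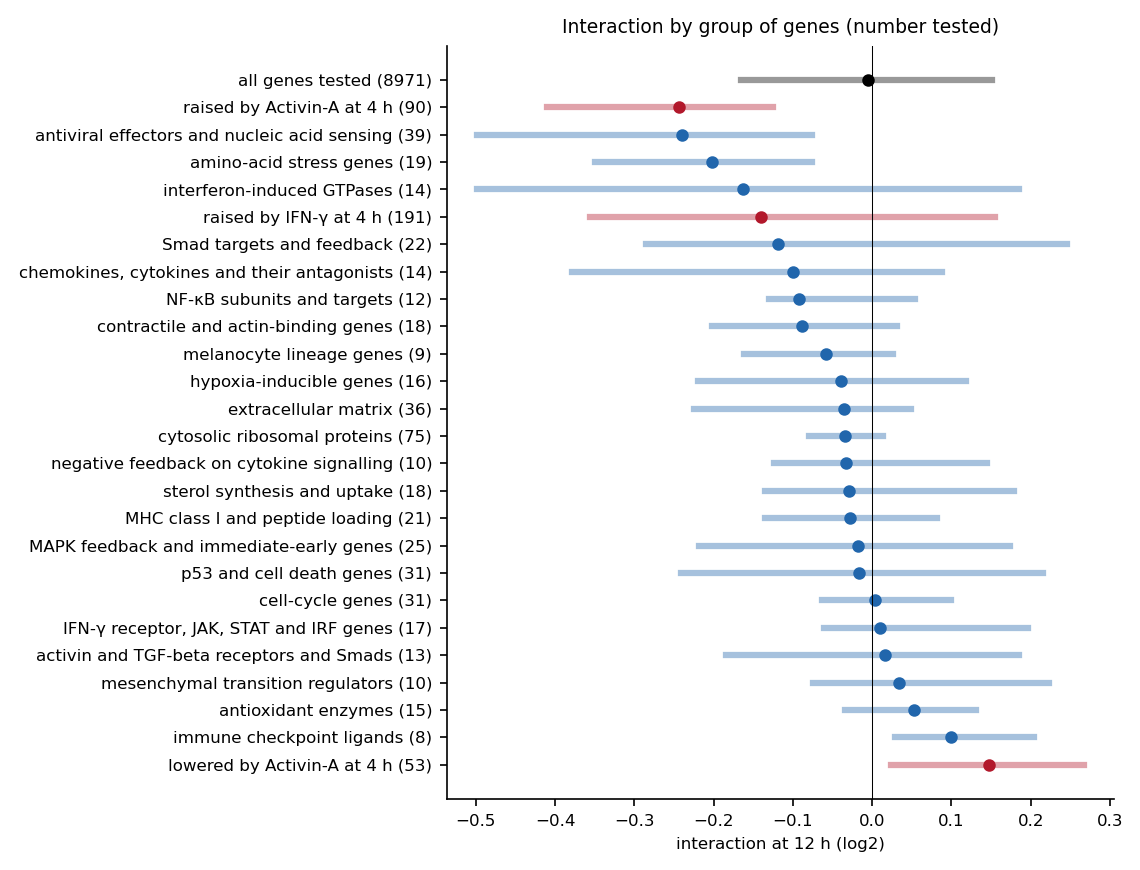
Median interaction at 12 h (points, log2, x axis) and quartiles (bars) of each group of genes, with the number tested in brackets and without complement, where 1 gene was tested; red marks groups chosen at 4 h, blue marks listed groups and black all genes tested. Genes raised by Activin-A at 4 h, antiviral effectors and amino-acid stress genes have the lowest medians of the groups drawn, -0.24, -0.24 and -0.20.

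The same contrast in the 16 wells harvested at 4 h gave 0 calls of 9137 genes (0%) in edgeR, with 505 at an unadjusted p under 0.05 (5.53%), and 0 in DESeq2, with 255. Cth had an interaction of 0.50 ± 0.33 at 4 h and Psph of 0.58 ± 0.24, opposite in sign to 12 h. Of the other genes at the top of the 12 h ranking, Nqo1 (-0.27 ± 0.22), Nrn1 (-0.05 ± 0.09) and Kctd3 (-0.14 ± 0.24) also had the opposite sign. Gadd45a (-0.44 ± 0.18), Akr1c18 (0.37 ± 0.15), Igsf3 (-0.38 ± 0.37), Vps53 (-0.27 ± 0.26), Id3 (0.20 ± 0.11) and F2rl1 (-0.19 ± 0.17) kept their sign. Dmp1, above 0 at 12 h, had -0.44 ± 0.14 at 4 h. These values and the changes given next include Activin-A replicate 1 at 4 h, which differed from its group more than other wells did. Without that well, 1 gene was called at 4 h (Fst). The change between the time points, tested as the interaction at 12 h minus that at 4 h over all 32 wells, was -1.53 ± 0.38 for Cth (adjusted p = 0.314, edgeR), -1.36 ± 0.32 for Psph (adjusted p = 0.258, edgeR) and 1.06 ± 0.24 for Dmp1 (adjusted p = 0.258, edgeR), the smallest unadjusted p of the named genes. No gene of 9332 passed this test (0%), with 501 at an unadjusted p under 0.05 (5.37%). The median interaction of the amino-acid stress genes was 0.11 at 4 h, and that of the antiviral genes -0.19.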

How the data were processed

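YUMM3.3 cells were treated in quadruplicate wells and profiled by MERCURIUS BRB-seq. The deposited table holds raw counts per gene; the submitters' processing notes name STAR 2.7.10b, featureCounts, DESeq2 1.36.0 and build GRCm39, and the annotation and the handling of molecular identifiers are not given in the sources used here. Ensembl IDs were matched to symbols through GENCODE M21 (12437 of 12451). Counts of the 16 wells at 12 h were filtered (filterByExpr), scaled by TMM and fitted in edgeR 4.0.16 (R 4.3.3) with 1 mean per group. The contrast was tested by the quasi-likelihood F-test with Benjamini-Hochberg adjustment over all 8971 genes, and errors are Wald SEs. CPM are counts scaled by the well's total over the tested genes times its TMM factor, except for sums over cell type markers, which used the total over all genes. The mean log2 CPM of a group of genes used a prior count of 2. The 4 h wells were fitted in the same way and gave the lists of responding genes (adjusted p under 0.05, and for IFN-γ a log2 change above 1). The study's DESeq2 Wald test was an alternative (DESeq2 1.42.0), with limma voom (3.58.1), RLE, no scaling, 2 other filters, a replicate block, all 32 wells and leaving out each well. The members and the 22 gene lists were chosen with earlier results of these data known. Named genes were every call, the 12 genes with the smallest p and a mean of at least 10 counts, the smallest p in each list, and fixed genes of both pathways; a few of them are not reported here. A group at or under 3 counts per well was taken as the floor. Steps were tested on simulated data. Figures used matplotlib.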

Additional observations from a re-analysis of the deposited data

Results flagged for a closer look

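Cth was called for a difference of the Activin-A effect with and without IFN-γ, -1.02 on the log2 scale. In the groups of 4 wells, 8 of 208 checked had a well far from the other 3 by Dixon's criterion, which chance alone gives in about 1 group of 20. In the wells with both factors, replicate 1 was low for Cth (35.2 CPM, others 55.2 to 56.7), Gadd45a (79.4 CPM, others 109 to 114) and Akr1c18 (69.2 CPM, others 95.8 to 97.8), and replicate 2 was high for Lgals3 (1350 CPM, others 1165 to 1196). With IFN-γ alone, replicate 3 was low for Isg15 (254 CPM, others 380 to 393). Among untreated wells, replicate 4 was high for Psph (114 CPM, others 79.3 to 81.7) and replicate 3 for Psmb8 (16.5 CPM, others 11.7 to 12.5). With Activin-A alone, replicate 4 was low for Nlrc5 (3.73 CPM, others 9.31 to 9.71).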

How the results depend on the processing

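The count of 1 called gene became 0 with DESeq2, 2 without scaling beyond the library size (Cth and Id3), 8 without a filter on low counts, 0 at an adjusted p under 0.01 and 8 at 0.1, and 0 to 6 when 1 well was left out; limma voom, RLE and a minimum of 10 counts in every well gave 1. No scaling moved the median over all genes by more than 0.1. Same-numbered wells did not deviate together (mean r of -0.0013 over 24 pairs, 0 over 0.1), and the replicate block gave 1 call, with Cth at an adjusted p of 0.0430 in edgeR. DESeq2 called 140, 59 and 569 genes for Activin-A without and with IFN-γ and for IFN-γ with Activin-A. The interaction at 4 h had 1 call (Fst) without Activin-A replicate 1. Irf1, near 0, changed sign: -0.000387 with DESeq2, -0.00994 with limma voom, -0.000476 with RLE, -0.000448 with the block and -0.00257 with all 32 wells. The sign depended on the well left out for Irf1 (-0.0774 to 0.058), Socs1 (-0.0655 to 0.23), Tap1 (-0.13 to 0.29), Tmem173 (-0.0572 to 0.0836), Ccl2 (-0.26 to 0.0575), Cd274 (-0.36 to 0.39), Txnip (-0.21 to 0.0457). Other named genes kept their sign but moved in size, among them Irf7 (-0.49 to -0.058), Psmb8 (0.035 to 0.22) and Il33 (0.016 to 0.21). So did Cdkn1a (-0.26 to -0.068), H2-K1 (-0.22 to -0.073) and Bgn (-0.20 to -0.080). With at least 10 counts in every well, the medians of negative feedback, chemokine and p53 genes were -0.10, -0.0165 and -0.0764, that of melanocyte lineage genes -0.14, within the spread between wells, and no complement gene was left. The lists chosen at 4 h among IFN-γ-treated wells gave 0.18 for genes lowered by Activin-A. With 1 well left out, the medians that moved by more than the spread between wells ranged, for IFN-γ receptor, JAK, STAT and IRF genes -0.0113 to 0.13, for negative feedback on cytokine signalling -0.13 to 0.0893, for interferon-induced GTPases -0.27 to -0.11, for chemokines, cytokines and their antagonists -0.14 to 0.0574, for immune checkpoint ligands 0.0373 to 0.23, for activin and TGF-β receptors and Smads -0.0708 to 0.0928, for Smad targets and feedback -0.17 to -0.0241, for contractile and actin-binding genes -0.11 to -0.0553, for extracellular matrix -0.0889 to -0.0225, for mesenchymal transition regulators 0.00233 to 0.0932, for p53 and cell death genes -0.0829 to 0.0339, for MAPK feedback and immediate-early genes -0.0693 to 0.0389, for NF-κB subunits and targets -0.13 to 0.0567, for sterol synthesis and uptake -0.0513 to 0.0485, for genes raised by IFN-γ at 4 h -0.17 to -0.0839, for genes lowered by Activin-A at 4 h 0.12 to 0.15. The medians of the genes raised by Activin-A, of antiviral and of amino-acid stress genes stayed below 0 in these fits. On the linear CPM scale 5 of 51 named genes had the other sign (Socs1, Psmb8, Tap1, Tmem173 and Cd274), and Dmp1, 0.63 on the log2 scale, was within its error of 0. The cause was not tested. Depth limited the lower genes: under 30 counts the median SE was 0.376.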
